A study of Mus musculus with 2 samples.

Results

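Mir101 and Mir128 are small microRNA families encoded at separate places of the mouse genome, and 5 genes of them were described here: Mir101a, Mir101b, Mir101c, Mir128-1 and Mir128-2. They were chosen by gene name in the GENCODE M21 annotation, and all 5 were found among the 2202 microRNA genes counted. The samples were 2 microRNA-seq libraries of gastrocnemius, the large calf muscle, from male adults of the B6CASTF1/J strain aged 18 to 20 months, which are hybrids of the C57BL/6J and CAST/EiJ strains. No treatment, second genotype or other tissue was labelled, so the libraries form 1 group of biological replicates 1 and 2, and the questions are how the loci of each family share its counts and how far they differed between the libraries. The labels give separate biosamples under 1 donor record and do not say whether these were separate animals, so differences between them may be technical.

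A microRNA gene is transcribed as a longer RNA, cut to a hairpin and then to a short duplex, from which an arm is loaded into Argonaute and pairs with target messages mainly through its seed, bases 2 to 8. Mir101 microRNAs are known as repressors of Ezh2, the histone methyltransferase of Polycomb repressive complex 2. Mir128 microRNAs are best known from the brain, where they are abundant in neurons. Genes that yield the same mature arm cannot be told apart by reads of that arm alone, so what a locus can be counted by depends on its own sequence.

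The mature arms are shown because they set which reads can identify a locus. They are RefSeq sequences on GRCm38.p6, which held arms of all 5 genes, written from the 5′ end with the seed in capitals.
miR-101a-3p: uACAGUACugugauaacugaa
miR-101b-3p: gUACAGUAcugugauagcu
miR-101c: aCAGUACUgugauaacuga
miR-101a-5p: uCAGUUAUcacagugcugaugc
miR-101b-5p: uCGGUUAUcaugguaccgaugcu
miR-128-3p: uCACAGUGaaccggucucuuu
miR-128-1-5p: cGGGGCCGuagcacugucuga
miR-128-2-5p: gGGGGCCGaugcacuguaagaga

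The 3p arm of Mir128 was identical at both loci over its whole 21 bases. The 5p arms of Mir128-1 and Mir128-2 differed but had the same seed, GGGGCCG. In the Mir101 family no annotated seed was shared. The annotated 3p arms start at different bases, while the 5p seeds of Mir101a and Mir101b, CAGUUAU and CGGUUAU, differ by 1 base. Over 18 aligned bases miR-101b-3p differed from miR-101a-3p by A16G, counted from the 5′ end of miR-101a-3p, and its annotated arm begins 1 base earlier. The 19 bases of miR-101c lie without a difference inside miR-101a-3p, starting 1 base later.

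The precursors show how far this sharing extends. Below, capitals mark the longest stretch common to Mir128-1 and Mir128-2, of 23 bases, then the longest common to Mir101a and Mir101b, of 20 bases, and for Mir101c the 19 bases it has in common with Mir101a. These are GENCODE M21 transcript sequences, in DNA letters on each gene's own strand.
Mir128-1: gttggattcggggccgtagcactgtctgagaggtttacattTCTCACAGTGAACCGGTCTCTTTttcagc
Mir128-2: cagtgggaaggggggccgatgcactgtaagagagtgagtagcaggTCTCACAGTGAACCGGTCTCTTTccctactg
Mir101a: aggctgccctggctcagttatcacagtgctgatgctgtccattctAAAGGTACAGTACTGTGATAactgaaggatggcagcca
Mir101b: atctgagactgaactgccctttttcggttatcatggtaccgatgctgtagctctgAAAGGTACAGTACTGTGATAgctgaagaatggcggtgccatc
Mir101c: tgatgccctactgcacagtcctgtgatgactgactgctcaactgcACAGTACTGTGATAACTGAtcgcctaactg

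A read that starts at the first base of miR-128-3p had to reach 22 bases before its sequence was found at no other microRNA gene, 1 base beyond the annotated arm. For miR-101a-3p that length was 16 bases and for miR-101b-3p 17 bases, both within the arm. For miR-101c it was 20 bases, beyond its arm of 19. The 5p arms became specific sooner, after 9 bases for Mir128-1 and 10 bases for Mir128-2, and after 15 bases for Mir101a and 10 bases for Mir101b. These lengths refer to exact matches among microRNA precursors only, and the rest of the genome was not searched.

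Multimapping reads, which are assigned to no gene, made up 73.8% of the deposited total in replicate 1 and 70.2% in replicate 2. The gene counts do not say which arm a read came from. The counts of Mir128-1 and Mir128-2 therefore leave out any read that matched both loci equally. They are lower limits of the reads these genes yielded only if no read was placed at the wrong locus. That cannot be checked, since the treatment of mismatches is not given in the sources used here. A lower limit need not hold for levels scaled to totals, since the totals leave out multimapping reads as well. The counts of Mir101c leave out reads in the same way, since its annotated arm lies whole within Mir101a.

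The loci are far apart and none has a microRNA gene close by, the nearest being 370905 bp away from Mir128-2. Coordinates are on mm10, 1-based. Mir101a (ENSMUSG00000065451.1) is a minus-strand gene of chromosome 4, from 101346945 to 101347027, in an exon of the long non-coding RNA gene E130102H24Rik. Mir101b (ENSMUSG00000065556.1) is on the plus strand of chromosome 19, bases 29135279 to 29135375, in an intron of Rcl1, whose protein takes part in ribosomal RNA processing. Mir101c (ENSMUSG00000106183.1) is on the minus strand of chromosome 9, bases 3038669 to 3038743, and overlaps no other annotated gene. Mir128-1 (ENSMUSG00000065520.2) is on the plus strand of chromosome 1, bases 128202361 to 128202430, in an intron of R3hdm1. Mir128-2 (ENSMUSG00000065441.2) is on the minus strand of chromosome 9, bases 112118636 to 112118711, in an intron of Arpp21, a gene known from neurons. The 4 members with a host gene lie on its strand.

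Mir101c also stood apart in its predicted fold. The minimum free energy predicted for its precursor of 75 bases was −16.1 kcal/mol, or −21.5 per 100 bases, and only 3.63% of the 2202 precursors had a less stable prediction. Mir101a was at −56.6 per 100 bases, Mir128-2 at −49.1, Mir128-1 at −41.9 and Mir101b at −40.8, against a median of −36.9 over all precursors. These are predictions from sequence and not measurements of the tissue.

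The microRNA genes took 4442692 counts in replicate 1 and 2156222 in replicate 2. Levels are given as CPM, a gene's counts scaled to a common total of these, with no correction for precursor length because a read stands for a mature arm. Skeletal muscle markers were present, with 9 of 10 listed genes counted in both libraries and Mir206, a microRNA gene of skeletal muscle, at 11810 and 61540 CPM. Of the 9 tested, 3 were higher in replicate 2 (Mir206, Mir499 and Mir208b), 4 higher in replicate 1 (Mir1a-1, Mir1a-2, Mir133b and Mir486) and 2 were not called in the test between the libraries described further on, with a median log2 ratio of −0.30. Over all genes tested 30.3% were higher in replicate 2 and 31.6% in replicate 1. The Mir1a and Mir133a genes are known to have a mature arm in common within each pair. Reads that match both loci of a pair are not in their counts. Endothelial, leukocyte and erythroid markers were present too, and their values stand below where they bear on a member. In bulk tissue fewer cells of a type and less RNA per cell cannot be told apart.

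Both Mir101 genes with counts were higher in replicate 1, and Mir101b led Mir101a in each library. Mir101b had 3571 counts in replicate 1 and 477 in replicate 2, or 804 CPM (exact Poisson 95% interval 778 to 831) and 221 CPM (202 to 242). Mir101a had 1355 and 248 counts, or 305 CPM (289 to 322) and 115 CPM (101 to 130). The counting intervals of the libraries did not overlap for either gene. In the binomial test between the libraries described further on, 61.8% of all genes tested differed, so a difference alone sets neither gene apart. The means were 513 ± 412 CPM for Mir101b and 210 ± 134 CPM for Mir101a (SD, n = 2), ranks 73 and 105 of the 2202 genes. Mir101c had no count in either library, which allows up to 0.675 CPM in replicate 1 and 1.39 CPM in replicate 2 of reads that can be placed at this locus alone, and sets no limit on reads of its annotated arm, which also match Mir101a. Intervals and limits cover counting error only, since the reads were amplified by PCR without molecular identifiers named in the labels.

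The Mir128 genes were both higher in replicate 2, the opposite direction, but by very different amounts. Mir128-1 had 2629 and 1528 counts, or 592 CPM (569 to 615) in replicate 1 and 709 CPM (674 to 745) in replicate 2. Mir128-2 had 81 and 158 counts, or 18.2 CPM (14.5 to 22.7) and 73.3 CPM (62.3 to 85.6). Mir128-1 was thus the member closest to equal in the libraries, and Mir128-2 the lowest member with counts in both. The means were 650 ± 82.7 CPM for Mir128-1, rank 61, and 45.8 ± 38.9 CPM for Mir128-2, rank 172.

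**Figure D1:**
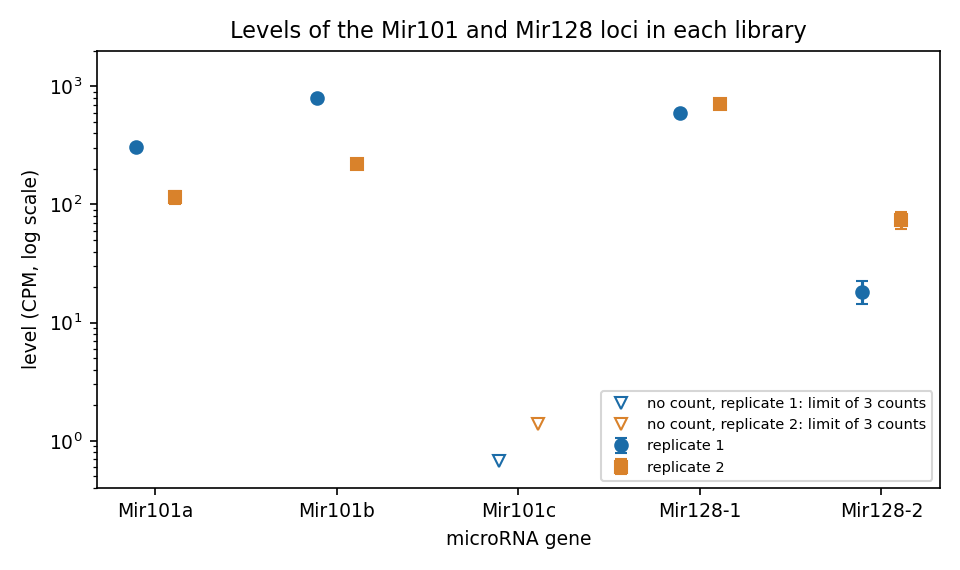
Level of each member in CPM on a log axis, with 1 point per library and bars for the exact Poisson 95% interval of the count. Mir101a and Mir101b lie higher in replicate 1 and the Mir128 genes in replicate 2, and open triangles for Mir101c mark the level that 3 counts placed at this locus would give, 0.675 and 1.39 CPM.

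The order of the members was Mir101b, Mir128-1, Mir101a, Mir128-2 and Mir101c in replicate 1. In replicate 2 Mir128-1 stood first and Mir101b second, and the order of the others was as in replicate 1. Mir101b was 1.36-fold higher than Mir128-1 in replicate 1 and Mir128-1 was 3.20-fold higher than Mir101b in replicate 2, so these neighbours did not differ beyond the spread between the libraries. With 2 libraries an exact two-sided sign-flip test between any pair of loci can give no p under 0.5, so no order of loci was tested over samples. Summed over loci, the Mir101 family came to 1109 CPM in replicate 1 and 336 in replicate 2, and the Mir128 family to 610 and 782 CPM. These sums hold only reads placed at 1 locus, and reads of the 3p arm that match both Mir128 loci are not among them. As counted, the Mir101 sum was 1.82-fold above the Mir128 sum in replicate 1, and the Mir128 sum was 2.33-fold above the Mir101 sum in replicate 2.

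Within the Mir101 family Mir101b took most of the counts in both libraries. Its share was 72.5% (Wilson 95% interval 71.2 to 73.7) of 4926 counts in replicate 1 and 65.8% (62.3 to 69.2) of 725 counts in replicate 2, a mean of 69.1% ± 4.74 (SD, n = 2). Mir101a took 27.5% and 34.2%. Mir101c took 0 of 4926 and 0 of 725 counts, which allows a share of up to 0.0609% and 0.414% of the reads placed at 1 locus. Mir101b was 2.64-fold above Mir101a in replicate 1 and 1.92-fold in replicate 2. The split differed between these libraries beyond counting error, with a ratio of these folds of 1.37 (exact 95% interval 1.16 to 1.62) and an adjusted p of 2.46e-04 in Fisher's exact test, two-sided and adjusted over the 2 families. Within the annotated 3p arms of Mir101a and Mir101b only the base given above tells reads of the loci apart, while the 5p arms differ more. The share of each arm in the counts is not known, and how many mismatches the aligner allowed is not given in the sources used here.

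Within the Mir128 family nearly all locus-specific counts were placed at Mir128-1, in the R3hdm1 intron. Its share was 97.0% (Wilson 95% interval 96.3 to 97.6) of 2710 counts in replicate 1 and 90.6% (89.1 to 91.9) of 1686 counts in replicate 2, a mean of 93.8% ± 4.51 (SD, n = 2). Mir128-2, in the Arpp21 intron, took 2.99% (2.41 to 3.70) and 9.37% (8.07 to 10.9). Mir128-1 was 32.5-fold above Mir128-2 in replicate 1 and 9.67-fold in replicate 2. The ratio of these folds was 3.36 (exact 95% interval 2.53 to 4.48), with an adjusted p of 1.01e-18 in the same Fisher's exact test. These shares describe only reads that could be placed at 1 locus, and how reads of the identical 3p arm divide between the loci cannot be told apart.

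**Figure D2:**
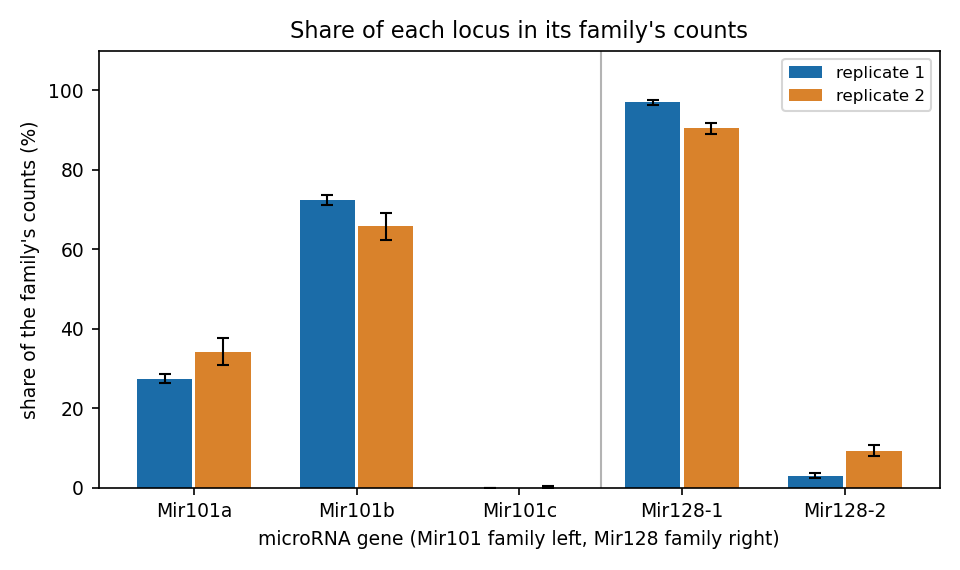
Share of each locus in its family's counts in percent, with 1 bar per library and the Wilson 95% interval. Mir101b leads its family at 72.5% and 65.8%, Mir128-1 leads its own at 97.0% and 90.6%, and Mir101c is at 0 in both.

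Replicate 2 was compared with replicate 1 across all microRNA genes to set the members' differences against those of the other genes. Of 380 genes with 10 or more counts, 235 (61.8%) differed at a Benjamini-Hochberg adjusted p of 0.05 in an exact binomial test, two-sided, of which 115 (30.3% of those tested) were higher in replicate 2 and 120 (31.6%) higher in replicate 1. All 4 members tested differed, 2 in each direction, and Mir101c had too few counts to be tested. With most genes called, a call alone sets no member apart. It is a comparison of 2 libraries and not of conditions, and it allows for counting error only. The SD of the log2 ratios over the 228 genes with 100 or more counts was 1.13, and the members' ratios are given beside it.

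Mir128-2 had the largest difference among the members. Its log2 ratio of replicate 2 over replicate 1 was 2.04 (exact 95% counting interval 1.70 to 2.50, adjusted p = 1.14e-27 in the binomial test), and 97.1% of the genes tested had a lower ratio. Mir101b had a log2 ratio of −1.76 (−1.91 to −1.63, adjusted p = 6.28e-186), with 7.11% of genes lower. Mir101a had −1.31 (−1.51 to −1.12, adjusted p = 5.71e-47), with 12.4% of genes lower. These 3 ratios were between 1.15 and 1.80 times the SD over genes in size. Mir128-1 had 0.35 (0.26 to 0.44, adjusted p = 1.88e-13), and only 30.0% of the genes tested had a smaller difference in either direction. The median log2 ratio was −0.48 over the 4 members tested and 0.02 over all genes tested.

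The paired loci were not equally far apart in these ratios. Mir101a and Mir101b differed by 0.46 on the log2 scale, and Mir128-2 and Mir128-1 by 1.69. Neither pair has a host gene in common. Reads of the identical 3p arm that match both Mir128 loci are not in these counts. Within each pair both loci went the same way, as the plot of the libraries shows.

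**Figure D3:**
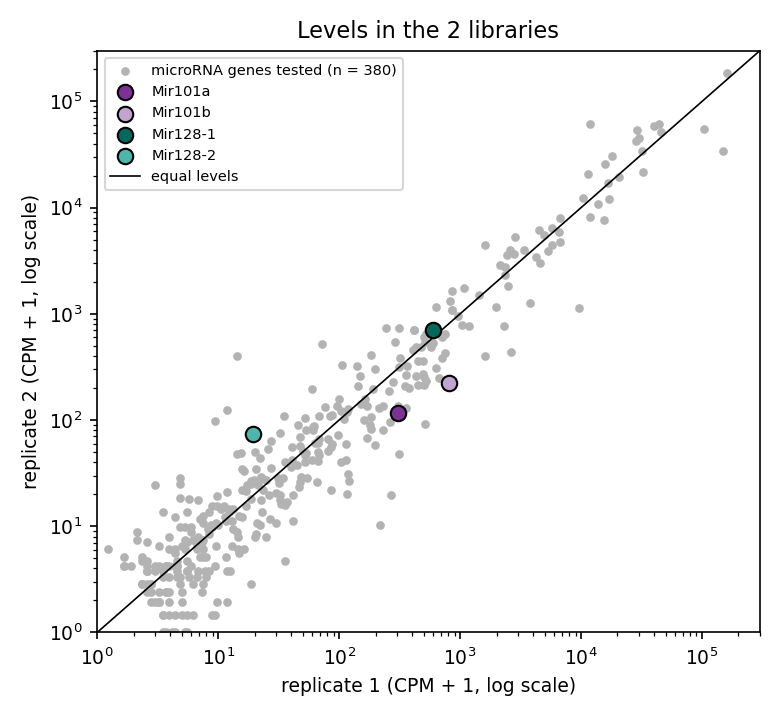
Level in replicate 2 against replicate 1 as CPM + 1 on log axes, with 1 grey point for each of the 380 genes tested and the 4 members tested in colour. Mir101a and Mir101b lie below the line of equal levels, Mir128-1 lies close to it and Mir128-2 lies well above it.

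Marker genes of other cell types differed between the libraries as well. The erythroid markers Mir451a and Mir144 were both higher in replicate 1, as the Mir101 genes were, with summed levels of 777 CPM against 109 CPM. The endothelial marker Mir126a was also higher in replicate 1, at 104418 against 55386 CPM, while Mir126b had no count. Of 4 leukocyte markers, 2 were higher in replicate 2 and 2 in replicate 1, with summed levels of 2285 and 3632 CPM. With 61.8% of all genes tested called, 30.3% higher in replicate 2 and 31.6% higher in replicate 1, such calls set no marker apart. The part of these cell types in the members' differences was not tested.

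Neural markers were looked at because Mir128 is known from neurons. Of 22 listed symbols 19 were found, and their summed level was 612 CPM in replicate 1 and 812 CPM in replicate 2. Of the 9 tested, 3 were higher in replicate 2, 2 in replicate 1 and 4 were not called, with a median log2 ratio of 0.13. Those higher in replicate 2, with Mir128-2, were Mir137 at 13.3 and 47.3 CPM, Mir219a-2 at 3.83 and 17.6 CPM and Mir132 at 138 and 319 CPM. Those higher in replicate 1 were Mir219a-1 at 4.05 and 0.464 CPM and Mir7-1 at 65.5 and 39.9 CPM. The 4 not called were Mir338, the highest of the list, at 309 and 318 CPM, Mir129-1 at 65.3 and 49.2 CPM, Mir129-2 and Mir212. Over all genes tested 30.3% were higher in replicate 2, so 3 of 9 is near the background. All 3 Mir124a genes, Mir9-1 and Mir9-2 had no count in either library, and Mir9-3 had 0 and 6 counts. Mir124a and Mir9 are defining microRNAs of neurons, and each is encoded at several loci with a mature arm in common, and reads that match several loci are not part of the counts.

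Other microRNA families hold bases of these seeds. Genes for miR-27 carry all 7 seed bases of miR-128-3p, shifted by 1 base to positions 3 to 9, and miR-144-3p carries 6 seed bases of miR-101a-3p, at the same positions 2 to 7. The seed of miR-101b-3p is found whole in miR-144-3p, 7 bases at positions 1 to 7. They are shown with the common bases in capitals, those with miR-128-3p for miR-27 and those with miR-101a-3p for miR-144-3p.
miR-27a-3p: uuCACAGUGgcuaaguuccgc
miR-27b-3p: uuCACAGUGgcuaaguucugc
miR-144-3p: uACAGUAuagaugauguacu

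Mir27b held 5093 ± 915 CPM (SD, n = 2), the highest of these relatives, and Mir27a held 654 ± 72.8 CPM. Mir144, the erythroid gene, was at 268 CPM in replicate 1 and at 18.6 CPM in replicate 2. The list also held Mir199a-1, Mir199a-2 and Mir199b, whose 3p arms start with the same 6 bases as the seed of miR-101a-3p and whose counted levels were at most 21.8 CPM. The 3p arm is the same at these 3 loci, so their counts too leave out reads that matched several loci equally. In the binomial test 4 of the 5 tested relatives were higher in replicate 1, none in replicate 2 and 1 was not called. Their median log2 ratio was −0.67. Over all genes tested 31.6% were higher in replicate 1 and 30.3% in replicate 2. Mir199b was near the threshold, with 97 and 27 counts and an adjusted p of 0.0422 in the binomial test.

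The split of Mir128 was set beside those of 17 other pairs of loci that are known to have a mature arm in common, which was found identical in the RefSeq table for 15 of them. The loci of the other 2 pairs, Mir1a and Mir133a, are named only. Of the 17 pairs, 15 had 10 or more counts in each library. The locus with the higher mean level took between 58.4% and 100% of its pair's counts, with a median of 87.9%, against 93.8% for Mir128-1. The highest was Mir199a-2, on 53 and 12 counts, whose partner Mir199a-1 had no count. The loci of this pair have both mature arms in common, so reads of either arm match both loci. The lack of counts thus sets no limit on reads of these arms from Mir199a-1. Mir194 and Mir103 also rest on few counts, with 88 and 21 at Mir194-2 and 33 and 16 at Mir103-2. In 4 pairs, Mir199a and Mir194 among them, the share was above that of Mir128-1. The leading locus was picked by its level in these same data, so a share above an equal split was largely given in advance. The median of 87.9% describes only how unequal the listed pairs were, for reads placed at a single locus. The share of the leading locus changed by 6.38 percentage points between the libraries for Mir128, against a median of 3.24 and a range of 0 to 49.1 points for the others, of which 6 changed by more. Of the 15 pairs 12 had the same locus ahead in both libraries, as Mir128 did.

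**Figure D4:**
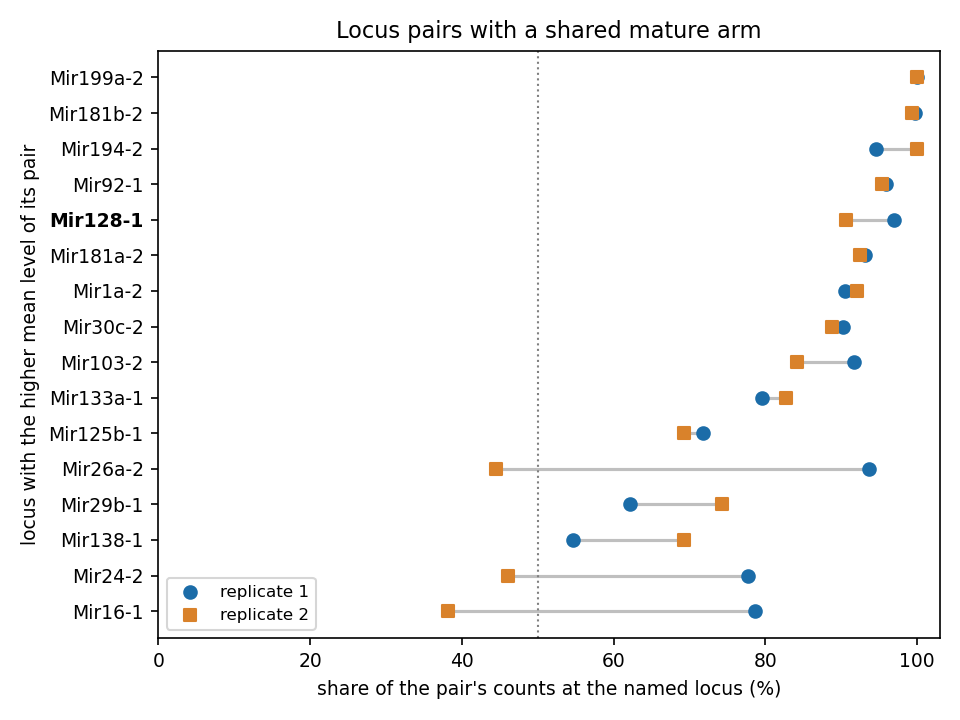
Share of a pair's counts at its higher locus in percent, for Mir128 and 15 other pairs of loci with a mature arm in common, with 1 point per library. Mir128-1 lies at 97.0% and 90.6%, between Mir92-1 and Mir181a-2, and in 3 pairs (Mir26a, Mir24 and Mir16) the points fall on both sides of the dotted line at equal shares.

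The genes closest to each member over both libraries were found by distance in log2(CPM + 1), over 2 libraries and so as a description only. Mir574, Mir106b and Mir25 were closest to Mir101a, at distances of 0.24, 0.27 and 0.35. Mir16-1, Mir181a-2 and Mir425 were closest to Mir101b, at 0.31, 0.59 and 0.63. Mir185, Mir324 and Mir34a were closest to Mir128-1, at 0.17, 0.23 and 0.34. Mir222, Mir92b and Mir138-1 were closest to Mir128-2, at 0.54, 0.58 and 0.64. No member was among the 3 closest genes of another member.

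All counts of the members lay on the gene's own strand. The counts without strand equalled the strand-specific counts for each of the 5 genes in both libraries, and the counts on the other strand were 0. The members' counts therefore do not rest on the choice of strand, unlike their CPM, whose totals do.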

How the data were processed

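For each library the authors deposited a table of raw read counts by microRNA gene, made on mm10 with GENCODE M21 per the readmes deposited with it. No aligner, trimming, counting tool or treatment of mismatches is named (not given in the sources used here). Of 3 count columns, taken from their values as unstranded, gene strand and opposite strand, the second was used. All 2202 identifiers matched M21. Reads of no gene, 84.3% and 80.2% of the tables, were kept out of totals. Log2 ratios used CPM + 1 with edgeR's TMM scaling from genes with 10 or more summed counts, which raised them by 0.0932. These genes entered an exact binomial test given the scaled totals. Precursors were folded with RNAfold 2.7.2. A simulation with counting error only checked the test. Tools were R 4.3.3, edgeR 4.0.16, DESeq2 1.42.0, Python 3.11.15, scipy 1.17.1, statsmodels 0.14.6 and matplotlib 3.10.9. Other settings were counts without strand, other scalings, filters of 1 and 100 counts, pseudocounts of 0.1 and 5 CPM and each library alone.

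The members, gene lists and tests were chosen with earlier results of these data known. The genes named were the members, up to 4 of each list with the highest levels or all those of a call, and the 3 genes nearest to each member.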

Additional observations from a re-analysis of the deposited data

How the results depend on the processing

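The 4 log2 ratios kept their direction and stayed past the threshold under all 8 alternatives run. Mir101b ranged from −1.86 to −1.75, Mir101a from −1.40 to −1.28, Mir128-1 from 0.26 to 0.35 and Mir128-2 from 1.83 to 2.09, and the number of genes called ranged from 190 to 237. The mean level of Mir128-1, 650 CPM, was 901 CPM with the counts without strand and 787 CPM with totals that leave out the most abundant gene, since both shrink the totals while its counts are the same. The levels of the other members with counts rose for the same reason, without strand to 294 CPM for Mir101a, 718 CPM for Mir101b and 62.9 CPM for Mir128-2, which is within their larger spread. The locus shares did not depend on totals or strand, and with each library alone they were 65.8% to 72.5% for Mir101b and 90.6% to 97.0% for Mir128-1. No paired analysis was possible because there is 1 group. Mir101c had no count to test, and Mir128-2 rests on 81 counts in replicate 1.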

Other observations

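Among the 15 other pairs of loci with a mature arm in common, the leading locus was not the same in both libraries for Mir16, Mir24 and Mir26a, named after their values were seen. Mir16-1 took 78.7% of its pair's counts in replicate 1 and 38.1% in replicate 2. Mir24-2 took 77.8% and 46.0%, and Mir26a-2 took 93.6% and 44.5%. In each of these pairs 1 locus was higher in replicate 1 and the other in replicate 2. Mir16-1 was at 674 and 250 CPM against 182 and 405 CPM for Mir16-2, and Mir26a-2 was at 159 and 99.7 CPM against 10.8 and 124 CPM for Mir26a-1. These values hold only reads placed at 1 locus, and how reads of the common arm divide between the loci cannot be told. The loci of Mir128 and the Mir101 genes with counts went the same way within their families.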
